A study of Mus musculus with 10 samples.

Results

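The genes described here make, break down and sense acetylcholine: Chat, Ache, Colq, Chrna1, Chrnb1, Chrnb2, Slc44a1, Slc44a2, Slc44a4 and Acly. They were chosen by name, and all 10 are among the 14450 genes of the expression table. The RNA came from mature B cells of the bone marrow of Chat-GFP mice at steady state, a strain in which green fluorescence reports use of the Chat locus, and the cells were sorted by flow cytometry into Chat+ and Chat- B cells. Both groups thus carry the reporter, and 5 libraries were sequenced for each. The labels give neither the build of the reporter nor the age or sex of the mice. Nor do they say if a library stands for its own mouse, so each p-value describes library-to-library spread, which may be technical. Levels are CPM, each gene's share of its library's total over the listed genes, scaled to a sum of 1000000, and the depth estimated from the low values was 21530000 to 30060000 reads per library.

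Acetylcholine is made by choline acetyltransferase, the product of Chat, from choline and acetyl-CoA. Choline enters cells through membrane transporters, and acetyl-CoA in the cytosol is made from citrate by ATP citrate lyase, the product of Acly. Acetylcholinesterase breaks the transmitter down, and cells sense it through nicotinic receptors, which are ion channels built of 5 subunits, and muscarinic receptors, which couple to G proteins. Besides neurons, some T cells and B cells are known to use Chat.

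The sequences just upstream of the annotated start sites are shown for Chat, on whose reporter the cells were sorted, and for Slc44a2 and Acly, which with Chat make up the 3 genes of the 10 with the highest levels per length in Chat+ cells. Each line gives the 250 bases before the RefSeq start on GRCm38.p6, 5′ to 3′ on the gene's strand, with CG dinucleotides in capitals. The Chat window is chr14:32465910-32466159 on the minus strand, the Slc44a2 window (the first of a pair of listed starts) chr9:21320469-21320718 on the plus strand and the Acly window chr11:100528001-100528250 on the minus strand.
Chat: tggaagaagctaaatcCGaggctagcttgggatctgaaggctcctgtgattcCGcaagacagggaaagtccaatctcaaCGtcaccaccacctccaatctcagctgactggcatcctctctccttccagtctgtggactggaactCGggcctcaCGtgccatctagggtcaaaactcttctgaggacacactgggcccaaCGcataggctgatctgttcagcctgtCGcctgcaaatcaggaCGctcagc
Slc44a2: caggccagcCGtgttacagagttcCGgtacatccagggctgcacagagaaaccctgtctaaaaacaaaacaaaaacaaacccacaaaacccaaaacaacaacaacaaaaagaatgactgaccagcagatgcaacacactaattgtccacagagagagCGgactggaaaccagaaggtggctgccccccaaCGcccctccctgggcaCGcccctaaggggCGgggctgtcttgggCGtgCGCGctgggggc
Acly: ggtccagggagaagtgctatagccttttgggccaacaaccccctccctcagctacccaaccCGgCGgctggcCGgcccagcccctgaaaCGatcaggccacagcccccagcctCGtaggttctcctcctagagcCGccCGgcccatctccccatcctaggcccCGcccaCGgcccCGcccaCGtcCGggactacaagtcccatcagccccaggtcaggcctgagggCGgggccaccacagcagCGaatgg

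The Chat window held 8 CG dinucleotides, that of Slc44a2 9 and that of Acly 14, where the median of all 32851 listed windows was 6. CG content did not follow the levels given further on: the first Slc44a1 window held 38, a count reached by 1.88% of all windows, and that of Ache 25, while Chrna1 had 3. Short motifs were searched on both strands, so a count can include hits that do not read along the lines printed above. CCAAT occurred 2 times before Chat and in 33.8% of all windows. The GC box letters GGGCGG occurred 4 times before Acly, 1 time before Slc44a2 and 0 times before Chat, and in 32.7% of all windows. TATAAA occurred before Chrnb1 alone among the 9 genes with a listed window, there on the opposite strand, and in 12.4% of all windows. Which start sites these B cells use was not measured.

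The sort was first checked on Chat itself. Chat+ libraries had 79.6, 71.9, 111, 59.9 and 31.1 CPM in replicates 1 to 5, and Chat- libraries 7.93, 5.15, 19.7, 3.54 and 1.17 CPM. The groups did not overlap, and the closest libraries were Chat+ replicate 5 and Chat- replicate 3. From the lowest to the highest level, the replicate numbers ran 5, 4, 2, 1 and 3 in both groups. At the estimated depths these levels stand for 803 to 3040 reads in Chat+ and 35 to 559 reads in Chat-, so the lowest value rested on few reads. Between libraries of the same number, the Chat+ value was 5.61 times (replicate 3) to 26.6 times (replicate 5) the Chat- value. Means were 70.6 ± 28.9 CPM for the Chat+ group against 7.50 ± 7.25 CPM for Chat- (SD, n = 5), a log2 difference of 3.64 ± 0.59 (SE).

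Over the whole table Chat had the third largest log2 difference and the seventh smallest p of 14450 genes, yet it missed the adjusted threshold of 0.05 (limma, p = 4.2e-05, Benjamini-Hochberg adjusted p = 0.087), while an exact two-sided permutation test of Chat alone gave p = 0.0079, the smallest that 5 against 5 libraries allow. Every Chat+ library lay above every Chat- library for 1.12% of all genes, and among the genes described here for Chat alone. Without Chat- replicate 3, which had the highest Chat level of its group, Chat passed (log2 difference 4.12 ± 0.49, limma adjusted p = 0.023). With library quality weights it passed as well (3.15 ± 0.53, limma adjusted p = 0.014). With the replicate number as a block it also passed (3.64 ± 0.29, limma adjusted p = 0.0092), though the labels do not say that equal numbers are pairs. Chat spans chromosome 14 from 32408203 to 32465989 on the minus strand of GRCm38. It contains the whole of Slc18a3, the gene of the vesicular acetylcholine transporter, at 32462438 to 32464850 on the same strand, and Slc18a3 is not among the listed genes.

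**Figure D1:**
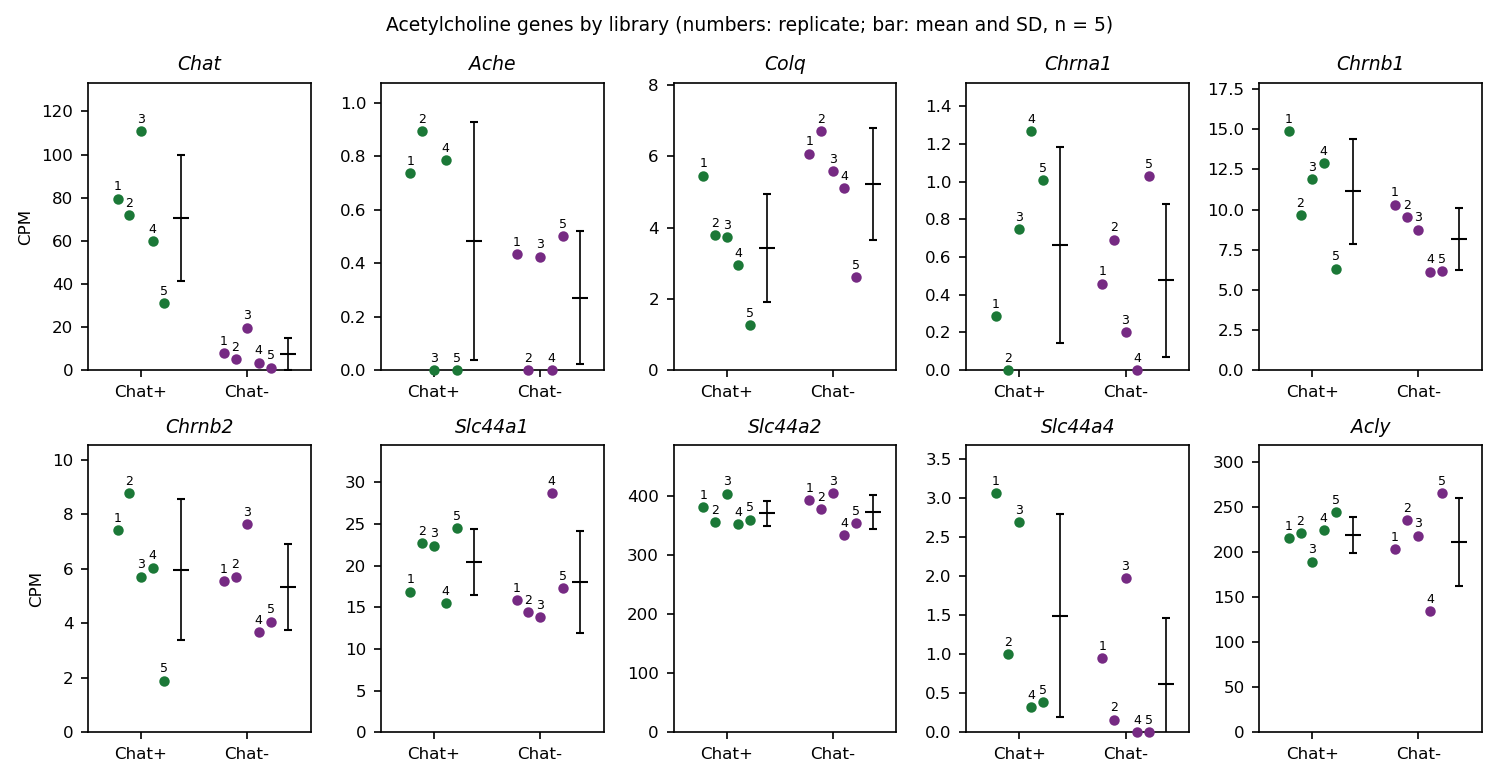
CPM of each of the 10 genes in each library (vertical axis, from 0, with its own scale in each panel), with Chat+ in green, Chat- in purple and the replicate number above each point. The bar beside each group gives the mean and SD (n = 5, drawn down to 0 only), and only in the Chat panel do the groups not overlap.

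Libraries of sorted cells can hold RNA of other cells, and in bulk RNA fewer cells of a type and less RNA per cell cannot be told apart. All 8 B cell markers were listed, at a summed 10045.3 to 10534.2 CPM in Chat+ and 10298.5 to 10899.9 CPM in Chat-. Of 9 T cell markers, Cd3e, Cd3d, Cd3g, Cd8a, Trac and Trbc2 were not listed, and Cd4, Lck and Cd5 summed to 14.4 to 26.7 CPM in Chat+ and 16.5 to 31.7 CPM in Chat-. The 5 listed plasma cell markers of 6 summed to 102.2 to 316.7 CPM in Chat+ and 98.6 to 133.2 CPM in Chat-. The summed level of the neuron and glia marker list is not reported here. Of its genes, Tubb3 had 4.75 to 12.4 CPM in Chat+ and 3.69 to 7.75 CPM in Chat-, with 4 of 5 same-numbered pairs higher in Chat+, and Sox10 had 0.286 to 1.24 CPM in Chat+ and 0.0394 to 3.02 CPM in Chat-. Slc18a3, Slc5a7, Snap25 and Syt1 were not listed. Of 7 skeletal muscle markers 4 were listed, at 5.3 to 20.1 CPM in Chat+ and 4.5 to 28.2 CPM in Chat-. The part of these transcripts in the results was not tested. Chat- replicate 4 stood apart from the other libraries, with 11.87% of its CPM from mitochondrial transcripts against 2.27% to 3.85% in the other 9. It also had 1213 genes listed at 0, Ache, Chrna1 and Slc44a4 among them, against 62 to 682 genes in the others. Its monocyte and macrophage markers summed to 193.3 CPM. The other Chat- libraries had 40.1 to 53.0 CPM, below all Chat+ libraries, which had 54.4 to 100.5 CPM. Its stromal and endothelial markers summed to 406.4 CPM, against 269.6 to 348.5 CPM in all others, sums that were largely Pecam1 in those libraries. Of the same list, Col1a1 had 111 CPM in Chat- replicate 4 and 7.59 to 12.4 CPM in the other Chat- libraries. In Chat+ it had 16.3, 42.4, 40.8, 8.4 and 38.5 CPM in replicates 1 to 5, so such RNA was not confined to Chat- replicate 4. Without Chat- replicate 4, Chat kept its difference (3.51 ± 0.62, limma adjusted p = 0.097).

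Apart from Chat, the genes of acetylcholine supply, breakdown and sensing gave no detectable difference between the groups. In the limma fit over all genes, 0 of these 10 passed, where 1 of 14450 genes did (0.00692%). At an unadjusted p under 0.05, Chat was the 1 gene of the 10 that was higher in Chat+, against 3.49% of all genes, and 0 of the 10 were lower, against 1.01%. The direction was upward for 8 of the 10 genes, with a median log2 difference of 0.27, while 57.0% of all genes lay upward with a median of 0.036. Chat, on whose reporter the cells were sorted, is among the 8. Without Chat- replicate 4, Chrna1 (-0.16), Chrnb2 (-0.068) and Acly (-0.071) lay downward, while the rest of the 8 stayed upward. The 9 genes besides Chat all had a limma adjusted p of 0.999.

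**Figure D2:**
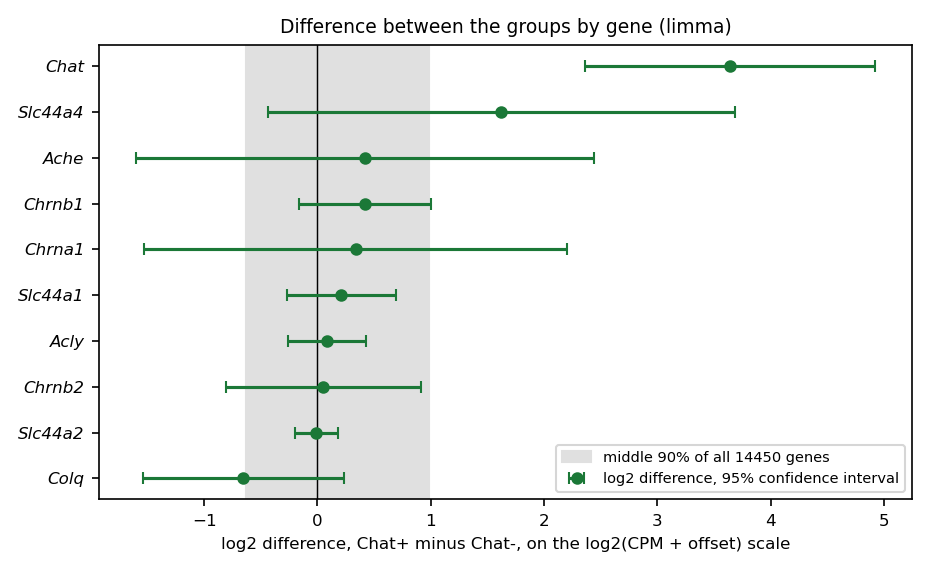
Log2 difference between Chat+ and Chat- for each gene (horizontal axis, positive where higher in Chat+) with its 95% confidence interval from limma; the grey band is the middle 90% of all 14450 genes (-0.63 to 0.98). The interval of Chat lies above the band, and all other intervals include 0.

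Of the substrate genes, Acly was abundant and near equal in both groups. It had 215, 221, 189, 224 and 244 CPM in Chat+ and 203, 235, 218, 134 and 265 CPM in Chat-, replicates 1 to 5. The Chat- libraries spread more widely than the Chat+ libraries and enclosed them, with Chat- replicate 4 lowest of all 10. The log2 difference was 0.08 ± 0.16 (SE, 95% confidence interval -0.26 to 0.43), so a change of more than 1.35-fold upward lay outside the interval. Without Chat- replicate 4 the difference was -0.07 ± 0.10. Acly lies on chromosome 11 from 100476353 to 100528000 on the minus strand.

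Slc44a2 was the most abundant of the listed choline transporters. The protein, also called choline transporter-like protein 2, sits in the plasma membrane and mitochondria. Its gene had 381, 356, 404, 352 and 360 CPM in Chat+ and 393, 378, 405, 334 and 354 CPM in Chat-. The Chat+ range lay within the Chat- range, and the interval of the difference was the narrowest of the 10 genes (log2 difference -0.01 ± 0.09, 95% confidence interval -0.20 to 0.18). A fold difference outside 0.871 to 1.14 thus lay outside the interval. Slc44a2 lies on chromosome 9 from 21320698 to 21355028 on the plus strand.

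Slc44a1, the gene of the broadly expressed choline transporter-like protein 1, was less abundant. It had 16.9, 22.7, 22.4, 15.5 and 24.5 CPM in Chat+ and 15.9, 14.4, 13.8, 28.7 and 17.3 CPM in Chat-. The highest value of all belonged to Chat- replicate 4, the library with the high mitochondrial share, and the other 4 Chat- libraries lay in the lower part of the Chat+ range or below it. The log2 difference was 0.21 ± 0.22 with all libraries and 0.39 ± 0.17 without Chat- replicate 4 (limma adjusted p = 0.65). Slc44a1 lies on chromosome 4 from 53440413 to 53622478 on the plus strand. An antisense gene, 1700060J05Rik, lies inside it but is not listed itself. Slc44a1 shares 4.05% of its 31-base words with other genes, all on the opposite strand, and with 1700060J05Rik most often.

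Slc44a4 encodes a choline transporter-like protein of epithelia that also carries thiamine pyrophosphate. It was scarce, with 3.06, 0.999, 2.69, 0.326 and 0.388 CPM in Chat+ and 0.947, 0.162, 1.97, 0 and 0 CPM in Chat-. In each of the 5 same-numbered pairs the Chat+ library had the higher value, yet replicates 1 and 3 of Chat- exceeded replicates 4 and 5 of Chat+. Such patterns over the pairs, here and below, were not set against all genes, and the labels do not say that equal numbers are pairs. The Slc44a4 levels stand for at most 75 reads, and the last 2 Chat- libraries are listed at 0. The log2 difference was 1.62 ± 0.95 (SE, 95% confidence interval -0.44 to 3.68), the second largest of the 10 genes, and since it includes libraries at 0 its size depends on the offset. With log2(CPM + 1) in place of the deposited offset it was 0.61. Slc44a4 lies on chromosome 17 from 34914466 to 34930436 on the plus strand.

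Per kilobase of exon, Slc44a2 made up 92.6% ± 1.16 of the sum of these 3 transporters in Chat+ and 93.8% ± 2.01 in Chat- (SD, n = 5). The share of Slc44a1 was 6.36% ± 1.21 in Chat+ and 5.76% ± 2.28 in Chat-, and the remainder was Slc44a4. The make-up of the transporter transcripts was therefore alike within the spread of the libraries, with Slc44a2 dominant in all 10.

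The genes of breakdown and anchoring were low. Ache encodes acetylcholinesterase. Its Chat+ libraries had 0.736, 0.895, 0, 0.786 and 0 CPM and its Chat- libraries 0.433, 0, 0.424, 0 and 0.500 CPM. In each group 2 libraries were listed at 0, and the others held 11 to 26 estimated reads. The log2 difference was 0.42 ± 0.93 (95% confidence interval -1.60 to 2.44), an interval too wide to place the gene as higher, lower or equal. It was 0.073 without Chat- replicate 2 or 4, 0.87 without Chat+ replicate 3 or 5, and 1.11 with quality weights. Ache lies on chromosome 5 from 137287519 to 137294466 on the plus strand.

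Colq encodes the collagen-like tail that anchors acetylcholinesterase in the matrix of the neuromuscular junction. It was the 1 gene of the 10 whose Chat+ value was below the Chat- value in all 5 same-numbered pairs, a pattern not set against all genes. Chat+ libraries had 5.45, 3.78, 3.72, 2.95 and 1.26 CPM, and Chat- libraries 6.07, 6.71, 5.58, 5.11 and 2.6 CPM. The groups overlapped: replicates 1 to 4 of Chat+ lay within the Chat- range, and replicates 4 and 5 of Chat- within the Chat+ range. The mean was 3.43 ± 1.52 CPM against 5.21 ± 1.58 CPM (SD, n = 5), and the log2 difference, -0.66 ± 0.41, did not pass (95% confidence interval -1.54 to 0.23). Without Chat+ replicate 5, its lowest library, the log2 difference was -0.35 ± 0.34. Colq lies on chromosome 14 from 31523082 to 31591343 on the minus strand, apart from Chat. It shares 4.77% of its 31-base words with other genes on the same strand, and the gene model Gm49387, which overlaps it on that strand, is not listed.

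Of 16 nicotinic subunit genes 3 were listed, and of 5 muscarinic receptor genes 0. Chrnb1 encodes the beta subunit of the muscle receptor. It had 14.9, 9.64, 11.9, 12.9 and 6.32 CPM in Chat+ and 10.3, 9.53, 8.74, 6.13 and 6.15 CPM in Chat-. The Chat+ library was higher in all 5 same-numbered pairs, by 1.01 to 2.11 times, a pattern not set against all genes. The groups overlapped and the difference did not pass (log2 difference 0.42 ± 0.27, 95% confidence interval -0.16 to 1.0). Chrnb1 lies on chromosome 11 from 69784036 to 69795943 on the minus strand.

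Chrna1 encodes the alpha subunit that pairs with it in muscle and carries part of the acetylcholine site. It was close to the limit of detection, with 0.285, 0, 0.748, 1.27 and 1.01 CPM in Chat+ and 0.459, 0.692, 0.202, 0 and 1.03 CPM in Chat-. At most 31 reads stood behind a value, and 1 library in each group was listed at 0. The log2 difference was 0.34 ± 0.86, and -0.16 ± 0.78 without Chat- replicate 4, so no direction can be given. Chrnd, Chrne and Chrng, the other subunits of the muscle receptor, were not listed, nor were the receptor-clustering genes Rapsn, Musk and Dok7. Chrna1 lies on chromosome 2 from 73563215 to 73580338 on the minus strand.

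Chrnb2 encodes a beta subunit of receptors best known from neurons. It had 7.43, 8.78, 5.71, 6.04 and 1.90 CPM in Chat+ and 5.56, 5.72, 7.65, 3.67 and 4.06 CPM in Chat-. The Chat- range lay wholly within the Chat+ range, whose lowest value came from replicate 5 (log2 difference 0.05 ± 0.40, 95% confidence interval -0.81 to 0.91). The neuronal alpha subunit genes, Chrna2 to Chrna7 among them, were not listed. Chrnb2 lies on chromosome 3 from 89746195 to 89764632 on the minus strand, and its end overlaps that of Adar on the opposite strand. Chrnb2 shares 15.0% of its 31-base words with other genes, all on the opposite strand, and with Adar most often. Adar, which encodes an RNA-editing enzyme, was far more abundant, at 163 to 178 CPM in Chat+ and 136 to 194 CPM in Chat-. The libraries were strand-specific, which would let reads of these genes be told apart if the quantification used the strand. Its strand setting is not given in the sources used here, so reads from the overlap may not have been told apart and the level of Chrnb2 is uncertain.

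The order of the levels was taken per kilobase of exon, since longer transcripts give more reads. In Chat+ cells Slc44a2 (42.7 ± 2.52 CPM per kilobase) and Acly (41.4 ± 3.76) came first, followed by Chat (15.0 ± 6.15), Chrnb1 (4.41 ± 1.31), Slc44a1 (2.94 ± 0.57), Colq (0.902 ± 0.399) and Chrnb2 (0.713 ± 0.308, all SD, n = 5). Slc44a4, Chrna1 and Ache followed, at no more than 0.984 CPM per kilobase in any library. Ranges of neighbours did not overlap between Acly and Chat, between Chat and Chrnb1 and between Slc44a1 and Colq, and they overlapped for all other neighbours, Slc44a2 and Acly included.

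In Chat- cells Chat took the fifth place, at 1.59 ± 1.54 CPM per kilobase, after Chrnb1 (3.22 ± 0.76) and Slc44a1 (2.6 ± 0.88). Its range of 0.249 to 4.19 overlapped those of Slc44a1 and of Colq, its neighbours. The only neighbours in that group whose ranges did not overlap were Acly and Chrnb1. With the length of the longest coding transcript in place of all exons, Slc44a2 (107 CPM per kilobase over all libraries) moved clear of Acly (48.5), Ache and Chrna1 changed places, and so did Slc44a1 and Chrnb1 in Chat-.

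**Figure D3:**
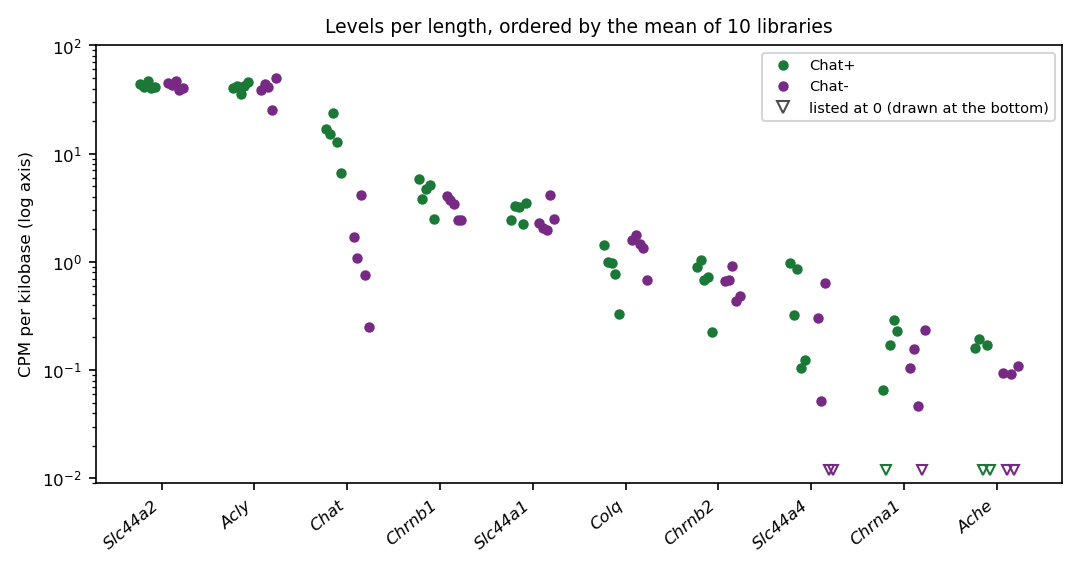
CPM per kilobase of exon (log axis) of each gene in each library, ordered by the mean over 10 libraries, with Chat+ in green and Chat- in purple. Open triangles at the bottom are libraries listed at 0; Slc44a2 and Acly lie near 40 in nearly every library, and Chat is the gene whose groups lie apart.

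Libraries of one group also differed in Chat, and other genes of the pathway followed these differences to unequal degrees. Within each group, the library's deviation from the group mean was correlated with that of Chat over the 10 libraries, as a description, since all values of a library share its RNA and depth. Slc44a4 followed Chat most closely of the 9 other genes (Pearson r = 0.86, and 0.88 without Chat- replicate 4), with its lowest values in replicates 4 and 5 of both groups. Slc44a2 (r = 0.73), Colq (0.69), Chrnb2 (0.65) and Chrnb1 (0.64) followed less closely. Ache was at 0.13, and Acly (-0.24, and -0.67 without Chat- replicate 4), Chrna1 (-0.29) and Slc44a1 (-0.38) ran the other way. Within Chat+ alone Acly was at -0.94, and within Chat- alone at -0.12. Of 11265 named genes with a mean of at least 1 CPM, 9 (0.0799%) had an r of at least 0.9, and 0 had -0.9 or lower. How common the less extreme values given here are among those genes was not counted. Replicate 5 was the lowest library of both groups for Chat and Colq, as it was for 10.1% of all genes.

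**Figure D4:**
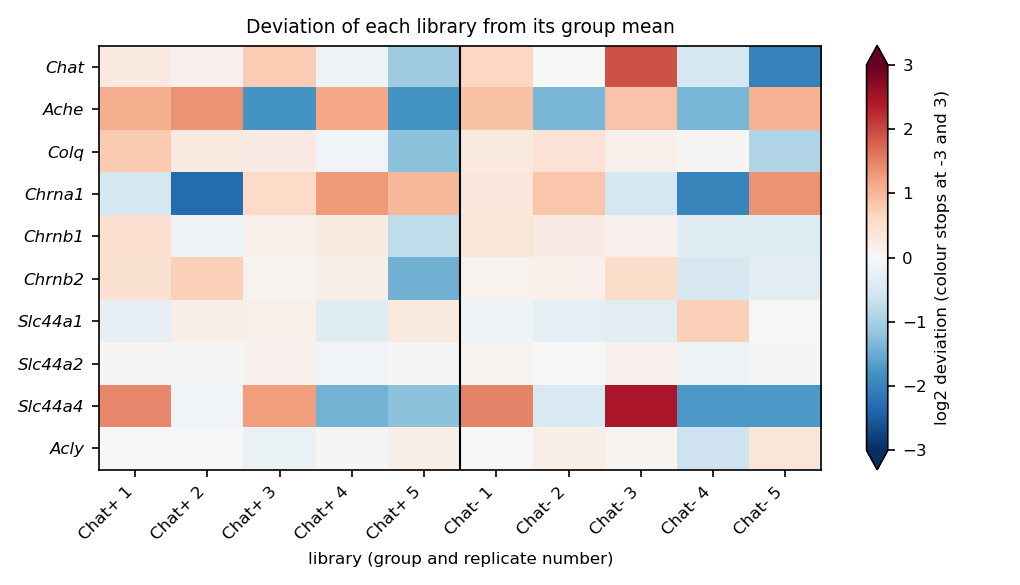
Log2 deviation of each library (columns, by group and replicate number) from its group mean for each gene (rows), with red above and blue below the mean. Chat, Colq, Chrnb1, Chrnb2 and Slc44a4 are blue in replicate 5 of both groups, while Slc44a2 stays near white throughout.

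Among 11265 named genes with a mean of at least 1 CPM, those whose deviations were most like those of Chat over the 10 libraries were Mtif2 (r = 0.96), Vps39 (0.95), Sat1 (0.94), Icam2 (0.94) and Thoc1 (0.91). Mtif2, a gene of mitochondrial translation initiation, averaged 40.7 ± 4.75 CPM for Chat+ against 38.9 ± 7.63 CPM for Chat- (SD, n = 5). The log2 differences of these 5 genes lay between -0.09 and 0.18, and 0 of them passed. These genes were picked for this likeness, so it is no separate result, and their group differences were far smaller than that of Chat. The likeness was not complete: within Chat+ alone, Thoc1 was at r = 0.67. The genes that ran most strongly against Chat were Mpeg1 (r = -0.89), Ptpmt1 (-0.88) and Ppm1l (-0.88). Mpeg1, which encodes a pore-forming protein of phagocytes and B cells, averaged 79.6 ± 14.1 CPM for Chat+ against 48.9 ± 11.3 CPM for Chat- (SD), so it was higher in the group with more Chat while lower, within a group, in libraries with more Chat (log2 difference 0.72, limma adjusted p = 0.34).

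The wider pathway was read from a list of 83 further genes, of which 41 were listed in the table. Of these 41, 0 passed in either direction, 21 were higher and 20 lower in Chat+, and the median log2 difference was 0.03. At an unadjusted p under 0.05 there were 1 higher and 1 lower gene of the 41, against 3.49% and 1.01% of all genes. By role, all 10 genes of acetyl-CoA supply were listed, Acly included, with log2 differences from -0.18 to 0.20. Of 13 choline uptake genes 5 were listed, and Slc5a7, the high-affinity transporter of cholinergic neurons, was not. Of 4 genes of breakdown and anchoring, Bche and Prima1 were not listed. Of 17 genes through which muscarinic receptors act 15 were listed, although no muscarinic receptor gene was, with 8 higher and 7 lower.

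The 6 further genes with the smallest p were Rgs2, Aldh7a1, Plcb2, Pcyt1b, Grk5 and Lynx1, all with an adjusted p of 0.999. Rgs2, which encodes a brake on G protein signalling, averaged 34.1 ± 4.9 CPM for Chat+ against 44.0 ± 6.8 CPM for Chat- (SD, n = 5), a log2 difference of -0.36 ± 0.15. Aldh7a1, an aldehyde dehydrogenase that can oxidise betaine aldehyde, a product of choline, had 10.3 ± 1.77 against 7.23 ± 1.33 CPM (log2 difference 0.51 ± 0.21). Both genes overlapped between the groups, Aldh7a1 because Chat- replicate 4, at 9.57 CPM, lay within the Chat+ range of 9.16 to 13.4. The log2 differences of the phospholipase gene Plcb2, of Pcyt1b, an enzyme gene of phosphatidylcholine synthesis, of the receptor kinase gene Grk5 and of Lynx1, whose product binds nicotinic receptors, were -0.34, 1.35, 0.36 and -0.31. Pcyt1b was scarce, at no more than 2.87 CPM, and 1 Chat- library was listed at 0.

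**Figure D5:**
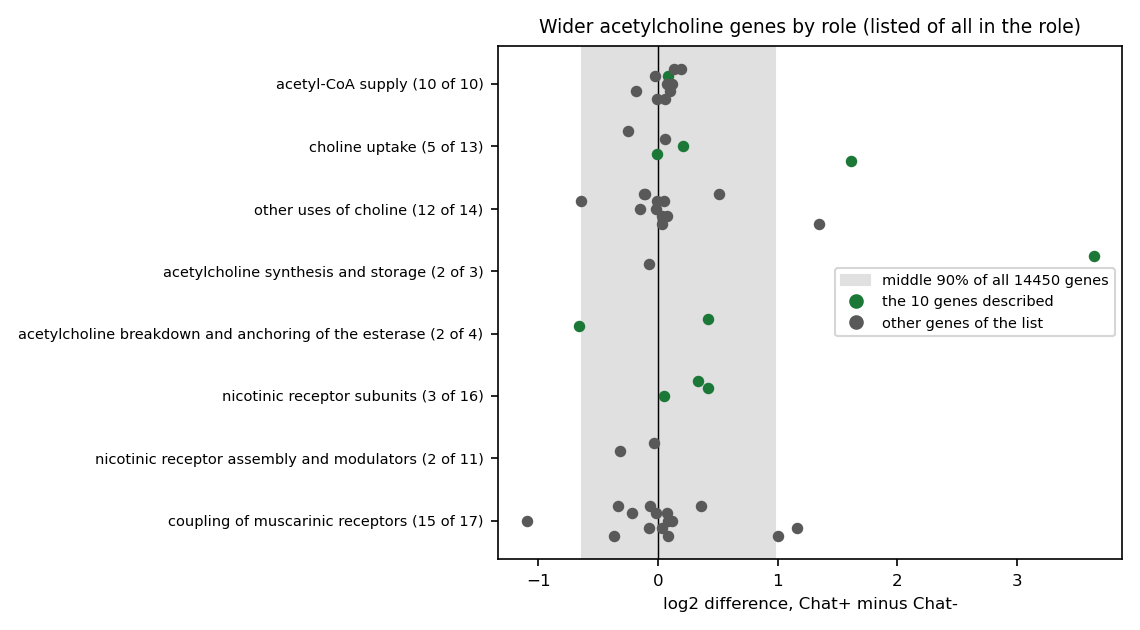
Log2 difference between Chat+ and Chat- of each listed gene of the wider pathway by role (rows, with the number listed of all genes in the role), with the 10 genes described in green and other genes in dark grey. The grey band is the middle 90% of all 14450 genes (-0.63 to 0.98); Chat and Slc44a4 are the green points above it, and Colq lies at its lower edge.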

How the data were processed

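RNA of sorted Chat+ and Chat- mature B cells was sequenced from strand-specific libraries, per the labels' protocols. The submitters' processing notes name cutadapt 2.6, Salmon 0.14.2 and GRCm38.p6. For the annotation, Salmon's strand setting and the program that wrote the table, the entry is: not given in the sources used here. The deposited values are log2 values: each library's lowest value is -3.1228, and without that offset (0.1148 CPM, 3.0 reads at the mean depth of 26130000 reads) the linear values sum to 1000000 CPM. Values under 3 CPM gave whole reads, to a tolerance of 0.001, in 35.4% to 48.8% of cases, and count models were not used. Every listed gene had at least 9.4 estimated reads in at least 5 libraries, and genes below such a level may have been left out before deposit.

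limma 3.58.1 in R 4.3.3 was fitted to all 14450 genes as deposited (lmFit, eBayes with a mean-variance trend, group as the only term, Benjamini-Hochberg adjustment, threshold 0.05). It was also run on simulated counts with an equal dispersion for all genes and no differences in library quality. That run does not show how the fit performs on these libraries. Because of the offset, log2 differences of low genes come out too small. Other settings were log2(CPM + 1), a filter of 1 CPM, median centring, quality weights, a replicate block, no trend and leaving out each library.

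Symbols were matched for 14374 identifiers. Coordinates, exon lengths, overlaps and 31-base words came from GENCODE M21 (GRCm38), and upstream sequences from RefSeq (GRCm38.p6), where 9 of 10 genes had an entry. The 10 genes and all lists were chosen with earlier results of these data known. Named besides the 10 were the 6 further pathway genes with the smallest p, the 5 genes most like Chat and 3 most unlike it, overlapping genes, and Crat, Ly6e and Lypla1, picked with their values already seen. The summed level of the neuron and glia marker list is not reported here. The other marker lists are in the text or as follows: natural killer cell markers summed to 0.1 to 3.4 CPM in Chat+ and 1.4 to 3.3 in Chat-, monocyte and macrophage 54.4 to 100.5 and 40.1 to 193.3, neutrophil 21.8 to 127.7 and 43.2 to 103.7, erythroid 302.1 to 562.7 and 272.1 to 649.2, megakaryocyte 1.8 to 5.6 and 1.8 to 5.4, stromal and endothelial 269.6 to 348.5 and 282.9 to 406.4, and mast cell and basophil 0.1 to 5.6 and 2.0 to 4.0.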

Additional observations from a re-analysis of the deposited data

Results flagged for a closer look

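In the Chat- group, Slc44a1 had 28.7 CPM in replicate 4, while the next library had 17.3 CPM and the lowest 13.8 CPM. The gap to the next library was 0.768 of the whole range of the group, above the critical value of 0.71 for 5 libraries. Of 20 groups looked at (10 genes in each of the groups), this was the 1 that stood out, where chance gives about 1 in 20. The same library had 11.87% of its CPM from mitochondrial transcripts, and the part of this in the value was not tested.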

How the results depend on the processing

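Across 17 other settings the log2 difference of Chat stayed between 3.13 and 4.12 and its limma adjusted p between 0.000683 and 0.30; it lay below the threshold in 4 of them. These were library quality weights (3.15, adjusted p = 0.014), the fit without Chat- replicate 3 (4.12), the replicate block (3.64 ± 0.29, adjusted p = 0.0092) and the block without both libraries numbered 4 (3.54). Genes called higher and lower over the whole table were 93 and 12 with quality weights, 5 and 1 with the replicate block, 84 and 5 with the block without number 4, 1 and 2 without the mean-variance trend, and 0 to 5 and 1 when a library was left out, with 5 higher without Chat+ replicate 5 and 5 without Chat- replicate 4. The cause was not tested. Of the further pathway genes 0 passed in each of these settings. Same-numbered libraries correlated at -0.20 to 0.23 in their deviations over all genes, and 3 of 5 Chat+ libraries correlated best with their own number. These values do not settle whether equal numbers are pairs. Because the labels state no pairing, the fit without the block was kept as the main one, and if the numbers do mark pairs, the block fit, in which Chat passed, is the apt one. No other gene of the 10 passed in any setting. Small differences changed sign: with a library left out, Chrna1 ranged from -0.16 to 0.92, Chrnb2 from -0.13 to 0.41, Slc44a2 from -0.046 to 0.024 and Acly from -0.071 to 0.17. Over the same fits Ache ranged from 0.073 to 0.87, Colq from -0.88 to -0.35, Chrnb1 from 0.30 to 0.61, Slc44a1 from 0.13 to 0.39 and Slc44a4 from 1.18 to 2.23. With the block without number 4, Ache (-0.22), Chrna1 (-0.48), Chrnb2 (-0.11) and Acly (-0.0804) changed sign, and with quality weights Chrna1 (-0.015) and Acly (-0.032). Median centring moved the median log2 difference of all genes from 0.036 to -0.0049. Scaling by trimmed means of M-values was planned and is left out of the settings counted here, since its tool is made for counts. The filter of 1 CPM left Ache and Chrna1 without a value. Depth limits Ache and Chrna1, whose values rest on at most 31 reads.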

Other observations

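Crat, Ly6e and Lypla1 are 3 further genes of the wider list, and 0 of them passed. Crat, whose product moves acetyl groups between CoA and carnitine and can also acetylate choline, averaged 32.4 ± 1.94 CPM for Chat+ against 34.3 ± 4.45 CPM for Chat- (SD, n = 5), with a log2 difference of -0.07 ± 0.12 and a 95% confidence interval of -0.33 to 0.18. Ly6e, a gene of the family that includes modulators of nicotinic receptors, averaged 2360 ± 176 CPM for Chat+ against 2420 ± 339 CPM for Chat-. Lypla1, an acyl-protein thioesterase gene, had 133 CPM in Chat- replicate 4, while the other Chat- libraries had 55.8 to 63.0 CPM and the Chat+ libraries 49.7 to 75.6 CPM.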
